A study of Caenorhabditis elegans with 2 samples.

Results

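F57C9.4 and htp-3 are adjacent protein-coding genes on chromosome I of Caenorhabditis elegans, and F57C9.4 encodes the protein that was tagged and precipitated in this chromatin immunoprecipitation with sequencing (ChIP-seq) study. Both genes were taken by name, as 2 of the 19973 protein-coding genes of the nuclear chromosomes, together with 40 kb on either side. On build ce11, htp-3 (WBGene00002034) lies at I:4827072-4829791 and F57C9.4 (WBGene00019011) at I:4830135-4835622, both on the plus strand with 343 bp between them. The span with its flanks runs from I:4787072 to I:4875622, which is 88.551 kb, and overlaps 14 protein-coding genes. Everything below describes where intervals of the deposited lists fell in that span, beside windows of the same length centred on 19861 other protein-coding genes.

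The RefSeq annotation describes F57C9.4 as a protein with a C2H2-type domain, a zinc finger fold that in many proteins binds DNA. HTP-3 is a HORMA-domain protein of the meiotic chromosome axis, the protein core along which sister chromatids are held during meiosis. It acts in the germ line, where other HORMA-domain proteins are recruited to the axis through it and where pairing, synapsis and meiotic double-strand breaks depend on it.

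The animals were young adults of strain OP550, which carries unc-119(tm4063) on chromosome III and the integrated transgene wgIs550, a C-terminal GFP-FLAG fusion to F57C9.4. They were of mixed sex and were taken 66 h after synchronisation as starved L1 larvae, and their chromatin was pulled down with anti-GFP. The 2 biological replicates, numbered 5 and 6 by the labels, form 1 group without any other strain or condition, so no difference between groups could be tested. The labels name a control only as possible. They give neither the copy number of wgIs550 nor the ends of the genomic DNA it carries, so DNA from the transgene and DNA from the native locus cannot be told apart in an interval list. Tissues cannot be told apart either, since whole worms were used.

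The authors' lists before the irreproducible discovery rate (IDR) step held 30000 intervals each for replicate 5, replicate 6 and the pooled replicates, and the IDR list held 360. IDR keeps intervals by comparing their ranks between replicates. An interval's summit is its highest point, and its signal is the authors' peak caller's own value, with a list median of 25.8 (pooled), 18.5 (replicate 5), 12.3 (replicate 6) and 81.5 (IDR), so signal was compared only within a list. Read depth is unknown from these lists. The pooled list shares its reads with both replicates and is not a further measurement.

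**Figure D1:**
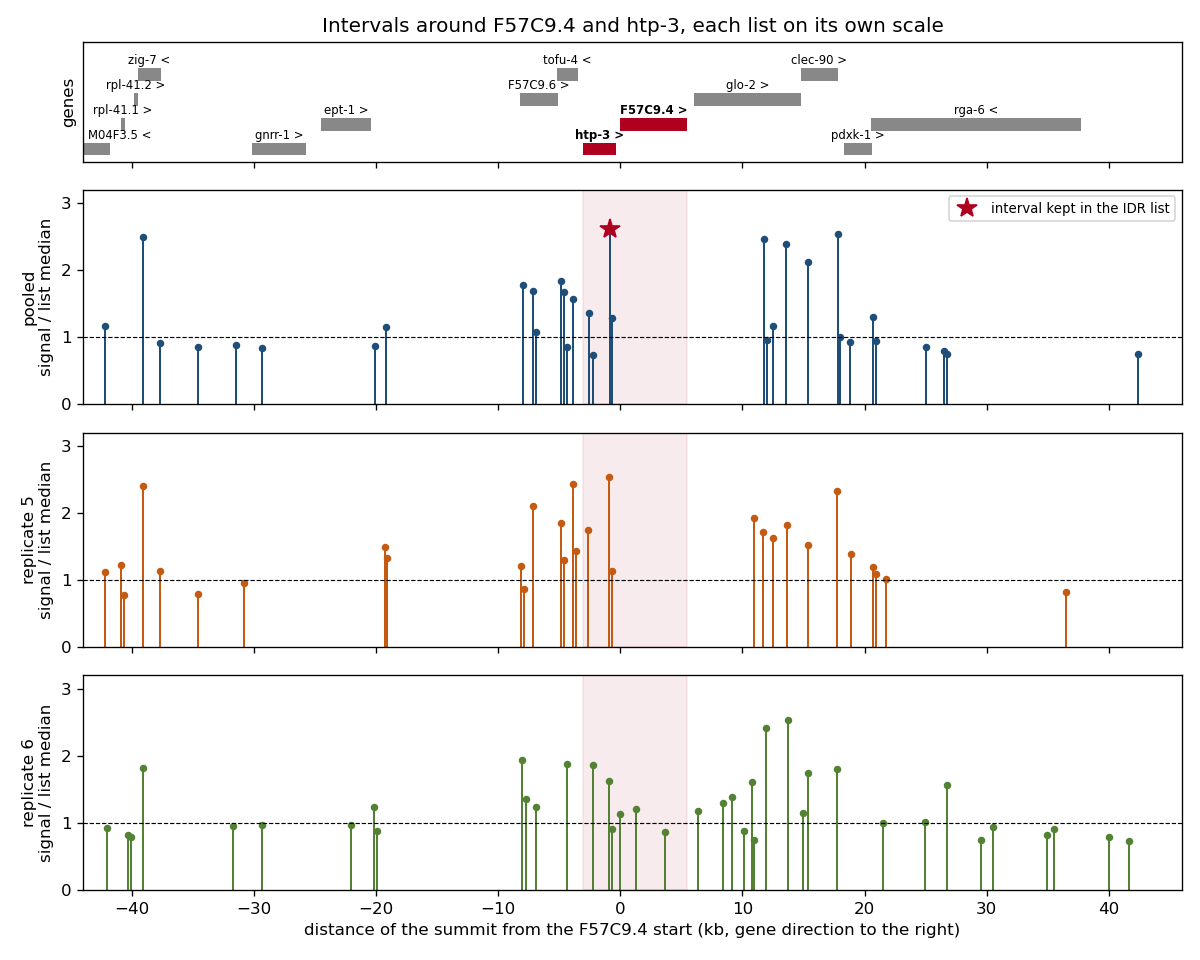
Each stem is 1 interval, placed by its summit's distance from the F57C9.4 start (kb), with its signal divided by the median of its own list (dashed line at 1) for the pooled list, replicate 5 and replicate 6; genes are drawn above, both named genes in red, with > for the plus strand. In all 3 lists most tall stems sit between about 8 kb before the F57C9.4 start and 12 kb past its end, apart from that in zig-7 at the left, with the IDR peak (star) inside htp-3 and no pooled interval over F57C9.4.

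The IDR list had 1 peak in the span, in htp-3. Its summit lay at I:4829243, in a coding exon of htp-3, 2171 bp into that gene and 892 bp upstream of the F57C9.4 start. Of the windows around other genes, 26.3% held at least 1 IDR summit (5226 of 19861), so a peak of this list somewhere in such a span was common. It was among the weakest of the list, with a signal of 67.3 and rank 350 of 360, against a median of 81.5 over all 360 peaks. In replicate 5 the interval over that summit had a signal of 47.0 and rank 310 of 30000. In replicate 6 it had a signal of 19.98 and rank 2761. The summits of the replicates, at I:4829239 in replicate 5 and I:4829225 in replicate 6, fell within 18 bp of the pooled summit.

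Neither member had an IDR summit within 500 bp of an annotated transcript start, against 188 of the 19973 protein-coding genes (0.941%). A pooled summit within 500 bp was present at htp-3 and absent at F57C9.4, against 6710 of 19973 genes (33.6%). At htp-3 that summit lay 477 bp into the gene, at I:4827549, with a signal of 35.3 and rank 5165 in the pooled list. The nearest summit to the htp-3 start was at 402 bp in replicate 5, with a signal of 32.4 and rank 1696. It was at 814 bp in replicate 6, with a signal of 23.0 and rank 1490, and was thus beyond 500 bp there.

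F57C9.4 has 2 transcripts that start at I:4830135 and 1 that starts at I:4830140. The nearest pooled summit to the first of these was 691 bp upstream, inside htp-3, with a signal of 33.1. In replicate 5 it was 692 bp upstream with a signal of 21.1. Replicate 6 alone had a summit close to the start, 51 bp upstream at I:4830084, with a signal of 13.9 and rank 10649, just above its list median of 12.3. The lists therefore differed at the promoter of the tagged gene, and the only summit within 500 bp came from a single replicate at a middling rank.

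The gene bodies of the pair differed. The body of htp-3 held 4 pooled summits, 3 in replicate 5 and 3 in replicate 6. Along the gene the pooled ones had q-values of 0.388, 0.901, 0.0129 (the IDR peak) and 0.466. Density counts every listed interval, whatever its q-value. The pooled density of htp-3 was 1.47 summits per kb, and 3.36% of protein-coding genes were as dense. In the replicates htp-3 held 1.10 per kb, with 7.03% of genes as dense in replicate 5 and 6.98% in replicate 6. Neighbouring pooled intervals in htp-3 overlapped, I:4827347-4827750 with I:4827686-4828089 and I:4829041-4829444 with I:4829242-4829645. Each was counted on its own, as in all genes, so these summits need not be separate sites. The body of F57C9.4 held no summit in the pooled list or in replicate 5. It held 2 in replicate 6, with signals of 14.8 (rank 8735) and 10.7 (rank 21188). A gene body with no pooled summit was ordinary, as 48.1% of genes had none. Among the 838 genes 5 to 6 kb long, like F57C9.4 at 5.488 kb, 178 (21.2%) had none and the median was 2.

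The empty stretch over F57C9.4 was longer than its body. No pooled summit lay between I:4829444, at the end of htp-3, and I:4841858, in an intron of glo-2, a gap of 12414 bp. Of the gaps between neighbouring pooled summits, 4.0% were at least that long, and the median was 1863 bp. Replicate 5 had a gap of 11672 bp in nearly the same place, ending at I:4841115, and 4.17% of its gaps were as long. In each list the gap was picked as the longest that touched either gene, whereas these shares are over all single gaps. They do not give the share of other genes that touch a gap as long, which was not counted. Replicate 6 filled the pooled gap with 10 summits, of signals 9.18 to 19.8, the best of which ranked 2886. Its longest gap touching either gene was 2700 bp, as long as or shorter than 39.4% of its gaps. In the reference, 45.9% of the bases of the pooled gap and 43.8% of the F57C9.4 body are soft-masked as repeats or low complexity, against 11.9% of the htp-3 body and 35.7% of the 6 nuclear chromosomes. GC content was 32.7% in the gap and 32.8% in F57C9.4, against 41.7% in htp-3 and 35.4% in the chromosomes. The part of masked sequence or base composition in the gap was not tested.

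**Figure D2:**
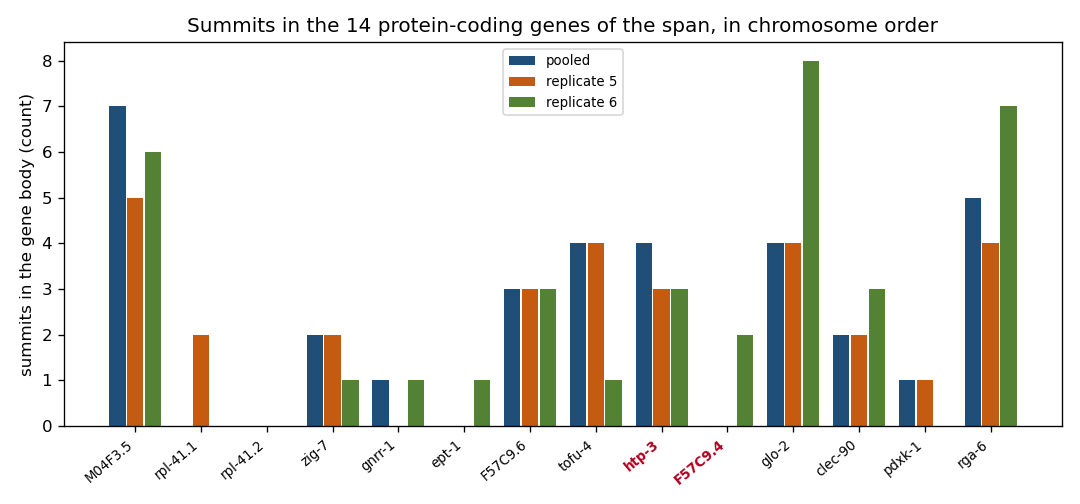
Bars give the number of summits in the body of each of the 14 protein-coding genes that overlap the span, in chromosome order, for the pooled list, replicate 5 and replicate 6. The htp-3 body had 4, 3 and 3, and F57C9.4 had none in the first pair of lists and 2 in replicate 6; M04F3.5 extends beyond the span and its whole body is counted.

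Over the whole span the number of intervals was moderate. The pooled list had 33 summits there, or 0.373 per kb, against a median of 0.294 per kb in the windows of other genes, and 22.2% of those windows were as dense. Replicate 5 had 30 summits (0.339 per kb), and 32.6% of other windows were as dense. Replicate 6 had 39 (0.440 per kb), and 5.70% were as dense. By count alone, then, the span was somewhat above the median of the other windows in replicate 5 and among the denser ones in replicate 6. The windows that were as dense in the pooled list formed 240 separate stretches of the chromosomes, because neighbouring genes share most of their window.

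Signal was then compared in the same windows, by its median, its sum per kb and its highest value. The median signal of its pooled intervals was 29.6, against a median of 25.6 in other windows, and 3.69% of windows were as high. In replicate 5 the median was 25.3, against 18.5 in other windows, and 4 of 19828 windows (0.0202%) were as high. In replicate 6 it was 13.9, against 12.3 in other windows, and 7.12% were as high. The sum of signal per kb came to 13.0 for the pooled list, 9.28 for replicate 5 and 6.77 for replicate 6, against medians of 8.36, 6.01 and 4.01 in the windows of other genes of those lists. Windows as high by this sum made up 8.22% of the pooled list's, 6.84% of replicate 5's and 3.60% of replicate 6's. The strongest single interval of the span was not unusual, since in the pooled list 25.8% of windows held one as strong as 67.3, against a median of 53.3.

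The intervals were unevenly placed within the span. The 10 kb upstream of htp-3 held 7 pooled summits, 2.34 times the mean density of the list, with a median signal of 43.2. The 8.551 kb of both genes held 4, or 1.56 times the mean density. The first 10 kb past F57C9.4 held 5 (1.67 times), with a median signal of 54.7, and the next 10 kb held 6 (2.01 times) but with a median signal of 25.2. The bins farther out varied. The outermost bin before htp-3, at 40 to 30 kb, held 4 pooled summits (1.34 times), the interval at rank 409 among them. From 30 to 10 kb before htp-3 there were 2 pooled summits per 10 kb (0.668 times), and past F57C9.4 there were 2 from 20 to 30 kb and 1 from 30 to 40 kb.

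The replicates differed in where they were densest. In the outermost bin before htp-3, replicate 5 held 6 summits (2.01 times its list mean) and replicate 6 held 4 (1.34 times). Upstream of htp-3 the nearest 10 kb held 7 summits in replicate 5 and 4 in replicate 6. Past F57C9.4 the nearest 10 kb held 5 in replicate 5 and 10 in replicate 6, where the density was 3.34 times the list mean. Both genes together held 3 summits in replicate 5 and 6 in replicate 6. Of the 33 pooled intervals of the span, 21 (63.6%) had their summit in an interval of replicate 5 and 18 (54.5%) in one of replicate 6, against 68.3% and 53.2% of all pooled intervals in those lists.

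**Figure D3:**
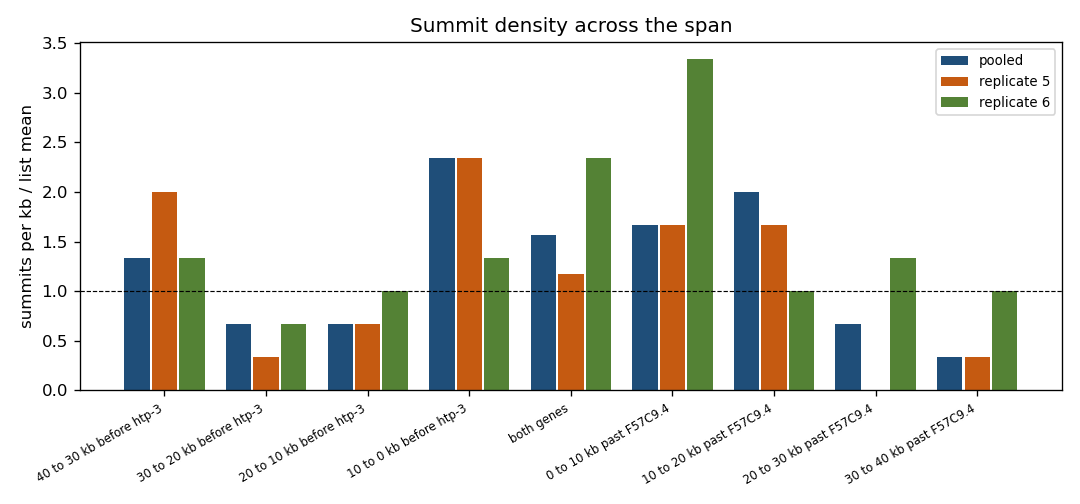
Bars give summits per kb divided by the mean density of the list (dashed line at 1) in bins of 10 kb and in the 8.551 kb of both genes, for the pooled list, replicate 5 and replicate 6. The bin just before htp-3 stands at 2.34 in the pooled list and replicate 5 and 1.34 in replicate 6, and the bin just past F57C9.4 stands at 1.67 in the pooled list and replicate 5 and 3.34 in replicate 6.

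Where a rise in density begins and ends was set by windows of 5 kb moved by 1 kb, with a rise being a run of windows that each held more than 6 summits, the 99th percentile of all such windows. In the pooled list a rise ran from I:4822116 to I:4827888, 5.773 kb with 9 summits, over F57C9.6, tofu-4 and the first part of htp-3. Those 9 summits had q-values from 0.0851 to 0.901. An overlapping second run went on to I:4829444, the last summit in htp-3. Replicate 5 gave a rise from I:4825258 to I:4829443, 4.186 kb with 7 summits. Replicate 6 gave none in the span, and within the bounds of the pooled rise it had 4 summits, as many as or fewer than 13.7% of windows of that length around other genes. In the pooled list, 17 of 19958 such windows (0.0852%) held as many as the 9 summits within these bounds. In replicate 5 the bounds held 7 summits, and 0.747% of windows held as many. The bounds were set by the pooled summits themselves. Among runs above the 99th percentile this length was not rare. There were 44 others as long among 222 in the pooled list and 121 others as long among 162 in replicate 5. By this rule, then, both pooled and replicate 5 lists placed a short rise before F57C9.4 and none past it.

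Within this rise, the closely spaced pooled summits lay in neighbouring genes. F57C9.6, which RefSeq annotates with a family 1 G-protein coupled receptor domain, had 3 summits in each of the pooled list, replicate 5 and replicate 6. Its strongest was at I:4822116 with a pooled signal of 45.9. The gene tofu-4, named for its part in the making of piRNAs, had 4 pooled summits, 4 in replicate 5 and 1 in replicate 6. Its pooled density of 2.30 per kb was matched or passed by 0.871% of protein-coding genes, whereas its density in replicate 6 was matched or passed by 23.5%. Some pooled intervals of tofu-4 overlapped as well, such as I:4825058-4825461 and I:4825277-4825680, and each was counted on its own here and in the rise. Over the whole span, 7 of the 32 steps between neighbouring pooled summits (21.9%) were shorter than 300 bp, against 9.61% of all pooled steps.

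The broader pattern was in the strong intervals, a view added after the density had been seen. Strong here means a rank among the best of a list, without a cut-off on the q-value. The strong pooled intervals in F57C9.6 and tofu-4 had q-values of 0.0851 to 0.148. Those in glo-2 and clec-90 had 0.0152 to 0.0373, and the htp-3 peak, the only one of the span in the IDR list, had 0.0129. Among the 3000 best-ranked intervals of each list, the span held 10 pooled, 11 from replicate 5 and 10 from replicate 6, against a median of 2 in the windows of other genes in each list. Windows with as many made up 1.11%, 0.438% and 0.987% of the others in the pooled list, replicate 5 and replicate 6. With the flanks cut to 10 kb, the 28.551 kb around both genes held 8 pooled ones, 9 from replicate 5 and 8 from replicate 6. Windows of that length with as many numbered 32 of 19939 (0.160%) in the pooled list, in 11 separate stretches. They numbered 10 (0.0502%) in replicate 5 and 15 (0.0752%) in replicate 6, in 5 separate stretches in each. Of the 8 pooled intervals, those at I:4825058-4825461 and I:4825277-4825680 in tofu-4 overlap. Overlapping intervals were counted singly here and in the other windows. With only the 1000 best intervals, the 28.551 kb held 4 pooled ones, 3 from replicate 5 and 2 from replicate 6, and 0.456%, 1.26% and 6.01% of other windows held as many in those lists.

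**Figure D4:**
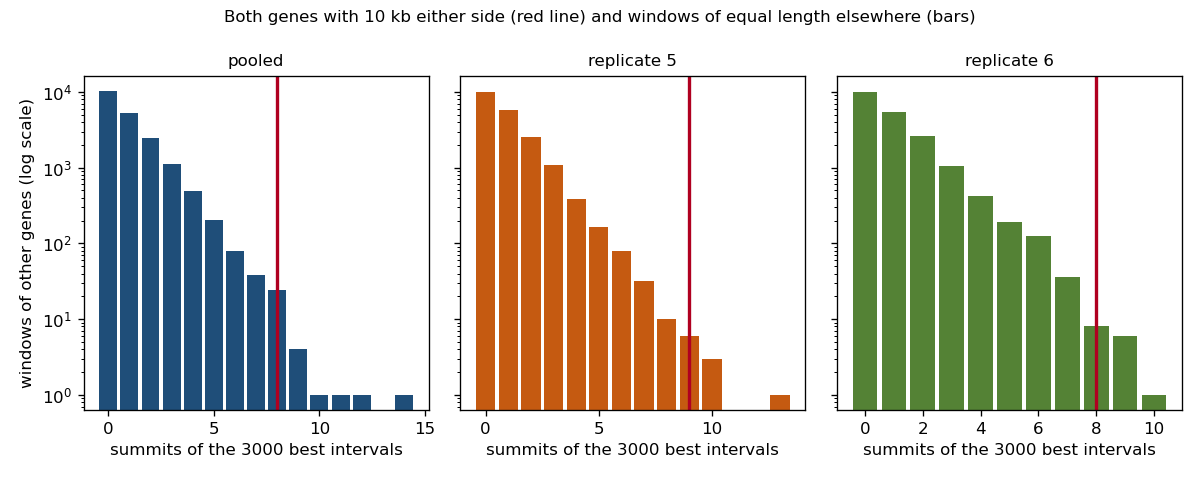
For each list, the red line marks the number of summits of the 3000 best intervals in the 28.551 kb around F57C9.4 and htp-3 (8 pooled, 9 in replicate 5, 8 in replicate 6), and bars count windows of equal length around other genes on a log scale. Most other windows held 0 or 1, and 32, 10 and 15 of 19939 held as many as the red line or more.

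These strong summits formed a stretch with nearly the same ends in every list. Joined by steps of at most 15 kb, it ran from I:4822116 to I:4847918 in the pooled list (25.803 kb, 9 summits), from I:4822992 to I:4847907 in replicate 5 (24.916 kb, 10 summits) and from I:4822101 to I:4847914 in replicate 6 (25.814 kb, 9 summits). It began 8019 bp before the F57C9.4 start in the pooled list, 7143 bp before it in replicate 5 and 8034 bp before it in replicate 6. It ended 12296, 12285 and 12292 bp past the F57C9.4 end in those lists. Beyond it the next strong summit lay 31.1 kb to the left and 63.7 kb to the right in the pooled list, and within 1 kb of these distances in both replicates. The median step between neighbouring strong summits was 16.0 kb over the whole pooled list, and a joining step shorter than the gap over F57C9.4 would split the stretch there. With the 15-kb step the tagged gene thus lay inside a stretch of strong intervals while its own body held none of them. That strong summits on both sides count as 1 stretch follows from this step, and no result for another step is given.

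Stretches with as many strong summits as this one were uncommon in each list. With the same joining rule, 10 other stretches of 1535 had at least 9 strong summits in the pooled list, and 4 of these were no longer than the one here. In replicate 5, 2 others of 1609 had at least 10, and in replicate 6, 8 others of 1575 had at least 9. The counts asked for were those of the stretch at F57C9.4 and htp-3 itself, so it met them in every list by construction. Some others, such as that at III:3791648-3807808 in the pooled list, met them in 2 lists. How near these came in the remaining list was not examined. Besides the stretch at F57C9.4 and htp-3, 1 other met its list's count with overlapping positions in all of them. That other stretch lies on chromosome II, at II:10538147-10563564 in the pooled list with 15 strong summits, over pro-1, cdc-48.1, R166.3 and mnk-1, genes named here after their values were seen. So this pattern was not found at the tagged gene alone.

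The strongest intervals of the stretch lay on both sides of F57C9.4. After the htp-3 peak, the highest pooled signal was 65.4 (rank 382) at I:4847918, in the 3' UTR of the C-type lectin gene clec-90 and 507 bp upstream of the start of pdxk-1. Its summits in the replicates were 11 bp or less away, with a signal of 43.3 (rank 435) in replicate 5 and 22.2 (rank 1756) in replicate 6. Introns of glo-2, a gene for a subunit of the BLOC-1 complex of lysosome-related organelles, held the next ones of the stretch. At I:4841858 the pooled signal was 63.6 (rank 428), with 31.9 (rank 1839) in replicate 5 and 29.9 (rank 438) in replicate 6. At I:4843738 it was 61.8 (rank 485), with 33.8 (rank 1395) in replicate 5 and 31.2 (rank 370) in replicate 6. At these glo-2 sites the summits of replicate 5 lay close to the pooled ones, at I:4841847 and I:4843746. Those of replicate 6 lay farther off, at I:4842036 and I:4843867. The order of strength thus differed between replicates, with the htp-3 peak strongest of the span in replicate 5 and the glo-2 intron strongest in replicate 6.

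On the left of F57C9.4 the replicates placed their strong summits in the same genes, mostly at different positions apart from the htp-3 peak. In tofu-4 the strongest interval of replicate 5 lay at I:4826267 (signal 45.0, rank 378), where replicate 6 had no interval. The only summit of replicate 6 in tofu-4 lay at I:4825790 (signal 23.1, rank 1427), where replicate 5 had none. In htp-3 the summit at I:4827474 in replicate 5 (signal 32.4) had no interval over it in replicate 6, and that at I:4827886 in replicate 6 (signal 23.0) had none in replicate 5. Of the 9 strong pooled summits of the stretch, 6 lay in a strong interval of replicate 5, 6 in one of replicate 6 and 4 in both (44.4%), against 23.6% in both for all 3000 best pooled intervals.

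One strong interval of the span lay outside the stretch. It was at I:4791025, in an intron of zig-7, a gene for a protein with immunoglobulin domains, and its nearest start was that of rpl-41.2, a gene for ribosomal protein L41. Its pooled signal was 64.2 (rank 409), with 44.5 (rank 393) in replicate 5 and 22.5 (rank 1651) in replicate 6. It stood apart, with intervals of middling signal around it. Of the longer genes at the edges of the span, M04F3.5 had 7 pooled summits in its body at 0.481 per kb and rga-6 had 5 at 0.291 per kb. Neither had an interval stronger than 33.6 in the pooled list. By contrast glo-2, with 4 pooled summits at 0.456 per kb, held signals up to 63.6.

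The window around unc-119 on chromosome III (III:10902641-10908935), the gene mutated in the strain, was sparse. It held 17 pooled summits, 18 in replicate 5 and 19 in replicate 6, and no IDR summit. Its pooled density was 0.192 per kb, and 90.1% of windows were as dense. The densest windows elsewhere that did not overlap each other were centred on znf-622 with 59 pooled summits, spsb-1 with 57, D2030.3 and F41C3.7 with 55 each and ran-1 with 54, against 33 around F57C9.4 and htp-3. Their median pooled signals were 26.0 to 28.6, below the 29.6 of the span at F57C9.4. Their sums of signal were 17.7 to 21.6 per kb, above the 13.0 of the span. The highest pooled signal was 184 in the window of ran-1 and 52.9 to 60.3 in the other 4, against 67.3 in the span. Of these windows, that of ran-1 held 3 IDR summits and the other 4 held none.

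Because htp-3 is a gene of the meiotic chromosome axis, a list of genes of meiotic chromosomes was examined, with htp-3 itself counted in it. Of 56 symbols for axis, synaptonemal complex, pairing, cohesin and recombination proteins, 55 were found in the annotation. A pooled summit lay within 500 bp of a start in 21 of the 55 (38.2%), against 33.6% of all protein-coding genes. An IDR summit was present in 1 of 55 (1.82%), against 0.941% of all genes. That gene was wapl-1, whose product acts in the release of cohesin from chromosomes, with a summit 187 bp from a start, a pooled signal of 71.9 and ranks of 299 in replicate 5 and 901 in replicate 6. The next highest pooled signals were 55.8 at syp-4, a gene of the synaptonemal complex, 40.6 at brc-1, the homologue of BRCA1, and 37.0 at him-17, a germline chromatin factor gene, followed by 35.3 at htp-3. The median of the highest signal near a start was 28.5 over the 21 genes and 27.3 over all genes with such a summit. Summits in the bodies of the other genes of this list were not analysed here.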

How the data were processed

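ChIP-seq interval lists from 2 biological replicates and their pool were used. Per the file headers and accompanying text, the authors made each list before IDR from the alignments with 1 further file of unstated kind per build, and the IDR list from those lists; the sources used here name no aligner, peak caller or version. The deposited signal of each interval was used within its list only. The deposited −log10 q-value served to describe lists (pooled q-values up to 0.906, so most intervals are background). The deposited summit offset, another value, gave summit positions. Lists on ce10 were not used.

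Genes came from Ensembl release 115 (WBcel235, the same assembly as ce11) and descriptions from RefSeq. Counts, signal and densities were computed with Python 3.11.15, pandas 2.3.3 and numpy 2.4.6. Ranks among windows of other genes are descriptions without a test, since those windows overlap. On simulated data the window rule found a planted rise in 10 of 10 runs. That rise was far denser than the one reported, and the other summits were placed uniformly. The runs therefore do not show how the rule performs on a weaker rise or on clustered intervals. Members, gene lists and measures were chosen with earlier results of these data known. Named were both genes, the 5 other genes of the span with most pooled summits, the genes nearest its 5 strongest intervals, unc-119, meiotic genes with an IDR summit or the 4 highest signals and the centres of the 5 densest windows; all others were named after their values were seen. The counts of strong intervals and their joined stretches, merged intervals and flanks of 10 kb were added after seeing the data.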

Additional observations from a re-analysis of the deposited data

How the results depend on the processing

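Values here are ratios of the span around F57C9.4 and htp-3 to the median window of other genes in the pooled list, unless stated. Density was 1.27 in the report's setting, 1.71 with flanks of 20 kb, 2.13 with the 10000 best intervals, and, added after seeing the data, 2 with flanks of 10 kb and 5 with the 3000 best. With overlapping intervals merged it was 1.04, with 49.96% of other windows as dense. Gene bodies, the rise and the counts of strong intervals were not recounted with overlapping intervals merged. Signal per kb was 1.56, and 2.26, 1.45 and 2.86 with flanks of 20, 60 and 10 kb and 2.46 with the 10000 best. Median signal was 1.15 with 3.69% of other windows as high, 1.63 with flanks of 10 kb and 1.02 with flanks of 60 kb, where 36.2% were as high. The highest signal was 1.26, and 1.48, 1.15 and 1.68 with flanks of 20, 60 and 10 kb. Leaving out a replicate gave 1.15 to 1.5 for density, 1.55 to 1.69 for signal per kb and 1.13 to 1.37 for median signal.

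The rise began at I:4825260 and ended at I:4826267 with windows of 2 kb. It ended at I:4829444 with windows of 10 kb, the 95th percentile or summed signal, and without replicate 6 it ran from I:4825258 to I:4829443. Without replicate 5, and at the strictest percentile tried, no rise was found in the span. The stronger 180 IDR peaks left 0 in the span. With a start window of 1000 bp, 1 member, F57C9.4, had an IDR summit. That summit was the peak in a coding exon of htp-3, 892 bp upstream of the F57C9.4 start. No share of all genes with an IDR summit within 1000 bp is given. In the meiotic list, 13 of 55 genes had a pooled summit within 250 bp, against 21.1% of all protein-coding genes. Within 1000 bp, 34 of 55 had one, against 50.8% of all protein-coding genes. The cause of these differences was not tested. Of 47 alternative values, 22 moved by less than the spread between replicates or within their tolerance and 25 moved further. The settings that found no rise gave no position and are in neither count. Some values could hardly move. Summits in the span lie at interval centres, so interval midpoints gave the same density ratio of 1.27. The values without a replicate set the spread by which they were judged. The tally is therefore no measure of stability. The lists limit the resolution of a summit to intervals of about 404 bp, and without read counts no counting error can be given.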
